A study of Mus musculus with 6 samples.

Results

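The 8 chemokine receptor genes, Ccr1, Ccr2, Ccr7, Ccrl2, Cxcr3, Cxcr4, Cxcr6 and Cx3cr1, were followed in RNA from immune cells of the mouse heart. They were taken by gene symbol from a table of 57010 Ensembl genes, and all 8 were found and passed the filter on low counts. The samples were 3 libraries labelled ICI (immune checkpoint inhibitors) and 3 labelled isotype, all of cells sorted as CD45-positive and CD90.2-negative from hearts. Mice of both groups had the genotype given as Ova DTG, which per the series' design text carries an ovalbumin transgene restricted to the heart, and mice of both groups received OTI cells, CD8 T cells specific for ovalbumin. The ICI mice were given antibodies against CTLA-4 (clone 9D9, 200 µg) and against PD-1 (200 µg), and the isotype mice were given control antibody. The promoter of the transgene, the age of the animals and whether a library pooled several hearts are not stated in the labels used here, and in this model both the target antigen in the heart and the T cells directed at it were supplied by the experimenters.

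Chemokine receptors are G protein-coupled receptors on leukocytes that read gradients of small secreted proteins and turn them into directed movement and adhesion. Which receptors a leukocyte carries sets which tissues it can enter and leave. In the heart, Ccr2 is widely used to separate macrophages that derive from recruited blood monocytes from long-lived resident macrophages, and Cx3cr1 is carried by patrolling monocytes and by many tissue macrophages.

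The receptor repertoire of the heart's non-T immune cells differed sharply between the groups. Transcripts of Cx3cr1, Ccr7, Cxcr6 and Cxcr4 were higher in the libraries labelled ICI, by 7.58-fold, 5.30-fold, 3.25-fold and 2.15-fold. Transcripts of Ccr1, Ccrl2 and Ccr2, all abundant, were lower in them, by 2.83-fold, 2.43-fold and 2.02-fold. Cxcr3 was scarce and did not pass the test. By the quasi-likelihood F test of edgeR, at a Benjamini-Hochberg adjusted p under 0.05 over 14575 tested genes, 4 of the 8 receptors were called higher and 3 lower. Calls were common in these data: 68.9% of all tested genes were called, 35.0% higher and 33.9% lower, so the count of members called lies near this background. The size of the changes is given beside the same over all genes: the median absolute log2 fold change was 1.39 over the 8 receptors and 0.66 over all tested genes. With signs kept, the medians were 0.84 over the receptors and 0.03 over all tested genes. The members were chosen with earlier results of these data known, so these contrasts are descriptions and not tests. In the order of all tested genes from the most positive to the most negative log2 fold change, Cx3cr1 stood 6.63% from the top, Ccr7 8.69%, Cxcr6 13.6% and Cxcr4 19.9%, whereas Ccr2 stood at 87.3%, Ccrl2 at 91.9% and Ccr1 at 94.4%.

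Promoter sequences of 4 receptors are shown because they are the letters upstream of a pair of genes with lower transcripts (Ccr1 and Ccrl2) and a pair with higher transcripts (Cxcr4 and Cx3cr1). They run from 250 bases before to 50 bases after a RefSeq transcription start on GRCm38.p6, an older build than the GRCm39 of the deposited counts, and were matched by symbol for 7 of the 8 receptors; Ccr7 is named only. Capitals mark matches, on either strand, to 1 of 5 motifs of factors that act in myeloid cells.
Ccr1, chr9:123968643-123968942, minus strand: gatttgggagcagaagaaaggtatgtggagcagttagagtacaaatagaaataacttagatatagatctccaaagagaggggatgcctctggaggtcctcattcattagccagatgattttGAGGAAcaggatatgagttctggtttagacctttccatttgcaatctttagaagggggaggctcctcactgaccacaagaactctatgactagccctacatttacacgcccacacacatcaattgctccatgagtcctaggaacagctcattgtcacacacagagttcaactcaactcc
Ccrl2, chr9:111057469-111057768, minus strand: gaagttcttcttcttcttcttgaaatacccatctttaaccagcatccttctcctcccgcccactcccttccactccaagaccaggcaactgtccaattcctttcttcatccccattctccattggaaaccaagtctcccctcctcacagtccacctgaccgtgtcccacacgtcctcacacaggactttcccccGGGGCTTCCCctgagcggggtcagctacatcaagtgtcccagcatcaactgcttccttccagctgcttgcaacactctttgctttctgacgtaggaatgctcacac
Cxcr4, chr1:128592250-128592549, minus strand: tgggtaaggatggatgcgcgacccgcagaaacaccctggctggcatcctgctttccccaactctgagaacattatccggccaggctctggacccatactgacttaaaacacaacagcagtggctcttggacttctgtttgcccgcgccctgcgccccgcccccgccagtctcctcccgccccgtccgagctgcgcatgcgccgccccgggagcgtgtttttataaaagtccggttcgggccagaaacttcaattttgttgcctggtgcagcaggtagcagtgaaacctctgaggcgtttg
Cx3cr1, chr9:120068247-120068546, minus strand: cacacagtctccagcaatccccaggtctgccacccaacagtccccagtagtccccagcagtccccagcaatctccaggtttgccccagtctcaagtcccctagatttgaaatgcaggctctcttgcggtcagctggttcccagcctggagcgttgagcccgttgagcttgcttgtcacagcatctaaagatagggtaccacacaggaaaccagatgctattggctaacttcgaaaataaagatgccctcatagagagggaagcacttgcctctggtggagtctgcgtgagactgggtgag
The motifs searched were TGANTCA for AP-1, the consensus of NF-kB, the paired consensus of interferon regulatory factors, GAGGAA for PU.1 and TTCNNNGAA for STAT factors. These stand in 7.81%, 4.51%, 3.44%, 28.3% and 8.30% of 32851 promoters of the same length, in the order given. The most upstream of 3 Ccrl2 starts held 1 match to NF-kB, and Ccr1 and Cxcr3 held 1 match each to PU.1. The windows of Cxcr4, Cx3cr1, Cxcr6 and Ccr2, and the other 2 Ccrl2 windows, held none of these letters. A match is a run of letters and not a binding site, and factor binding was not measured here.

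Ccr2, the receptor for Ccl2 that lets classical monocytes leave the bone marrow and enter inflamed tissue, had 415, 412 and 264 CPM (counts scaled to a common library total) in ICI replicates 1, 2 and 3, against 593, 580.4 and 757 CPM in isotype replicates 1, 2 and 3. The groups did not overlap, and the libraries farthest apart were the replicates 3. The mean was 363 ± 86.1 CPM for ICI and 643 ± 98.4 CPM for isotype (SD, n = 3 each). The log2 fold change was -1.02 (SE 0.20, 95% interval -1.48 to -0.55, edgeR adjusted p = 0.00252). Without ICI replicate 3 it was -0.81, and it stayed past the threshold.

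Ccr1, a receptor for Ccl3, Ccl5 and other inflammatory chemokines on monocytes, macrophages and neutrophils, had 168, 233 and 179 CPM in the ICI libraries, against 446, 585 and 393 CPM in the isotype libraries. Every isotype library lay well above every ICI library, and replicate 2 was the highest in each group. Its log2 fold change was -1.50 (SE 0.19, 95% interval -1.94 to -1.06, edgeR adjusted p = 0.000211).

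Ccrl2, an atypical receptor that does not itself drive migration and that binds the chemoattractant chemerin at the cell surface, had 201, 206 and 194 CPM in the ICI libraries, against 431, 446 and 393 CPM in the isotype libraries. It was the steadiest of the 8 within groups, with 200.1 ± 6.13 CPM for ICI and 423 ± 27.2 CPM for isotype (SD, n = 3 each). Its log2 fold change was -1.28 (SE 0.09, 95% interval -1.49 to -1.08, edgeR adjusted p = 1.67e-06), the narrowest interval among the receptors.

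Cx3cr1, the receptor for fractalkine, showed the largest difference. It had 350.3, 276 and 288 CPM in the ICI libraries, against 17.3, 17.0 and 71.3 CPM in the isotype libraries. The groups were far apart, and isotype replicate 3 stood apart from the other isotype libraries. The log2 fold change was 2.92 (SE 0.70, 95% interval 1.07 to 4.77, edgeR adjusted p = 0.0175). Without isotype replicate 3 the fold was 15.1 instead of 7.58 and the adjusted p 1.78e-07, and without ICI replicate 3 the fold was 7.95 and the call was lost (adjusted p = 0.0515).

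Ccr7, which guides mature dendritic cells and naive lymphocytes towards lymph nodes, had 100.2, 122 and 242 CPM in the ICI libraries, against 18.1, 21.0 and 36.5 CPM in the isotype libraries. The lowest ICI value was above the highest isotype value, and replicate 3 was the highest in each group. The mean was 155 ± 76.2 CPM for ICI and 25.2 ± 9.92 CPM for isotype (SD, n = 3 each). The log2 fold change was 2.41 (SE 0.45, 95% interval 1.25 to 3.56, edgeR adjusted p = 0.00594), and without ICI replicate 3 the fold was 3.92.

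Cxcr4, the receptor for Cxcl12 that holds leukocytes in bone marrow and other stromal niches, had 44.9, 46.5 and 68.0 CPM in the ICI libraries, against 18.1, 17.6 and 28.4 CPM in the isotype libraries. As for Ccr7, replicate 3 was the highest in each group and the groups did not overlap. This gave a log2 fold change of 1.11 (SE 0.21, 95% interval 0.60 to 1.61, edgeR adjusted p = 0.00249).

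Cxcr6, the receptor for the membrane-anchored chemokine Cxcl16 on memory-like T cells, natural killer cells and innate lymphoid cells, was rare. It had 41, 32 and 44 counts in the ICI libraries, against 13, 10 and 16 counts in the isotype libraries. On the CPM scale this was 1.73 ± 0.352 CPM for ICI and 0.455 ± 0.0590 CPM for isotype (SD, n = 3 each). This gave a log2 fold change of 1.70 (SE 0.31, 95% interval 1.01 to 2.39, edgeR adjusted p = 0.000766), and the groups did not overlap. On GRCm38.p6 Cxcr6 lies inside the span of Fyco1, and without strand information reads of the pair could be mixed where they overlap. Fyco1 had 28.9 ± 2.97 CPM for ICI and 23.2 ± 2.48 CPM for isotype (SD, n = 3 each) and was not called (log2 fold change 0.11, edgeR adjusted p = 0.371).

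Cxcr3, the receptor of activated T cells and natural killer cells for the interferon gamma-induced chemokines Cxcl9, Cxcl10 and Cxcl11, had 225, 117 and 160 counts in the ICI libraries, against 96, 89 and 189 counts in the isotype libraries. In CPM these were 9.87, 4.93 and 7.43 for ICI, against 3.25, 3.61 and 6.15 for isotype, so isotype replicate 3 lay above ICI replicate 2 and the groups overlapped. The log2 fold change was 0.57 (SE 0.31, 95% interval -0.14 to 1.27, edgeR adjusted p = 0.135). It passed the threshold without isotype replicate 3 (log2 fold change 0.87, adjusted p = 0.0294), without ICI replicate 2 (0.79, adjusted p = 0.0367) and with replicates 1 and 2 alone (0.91, adjusted p = 0.0355).

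**Figure D1:**
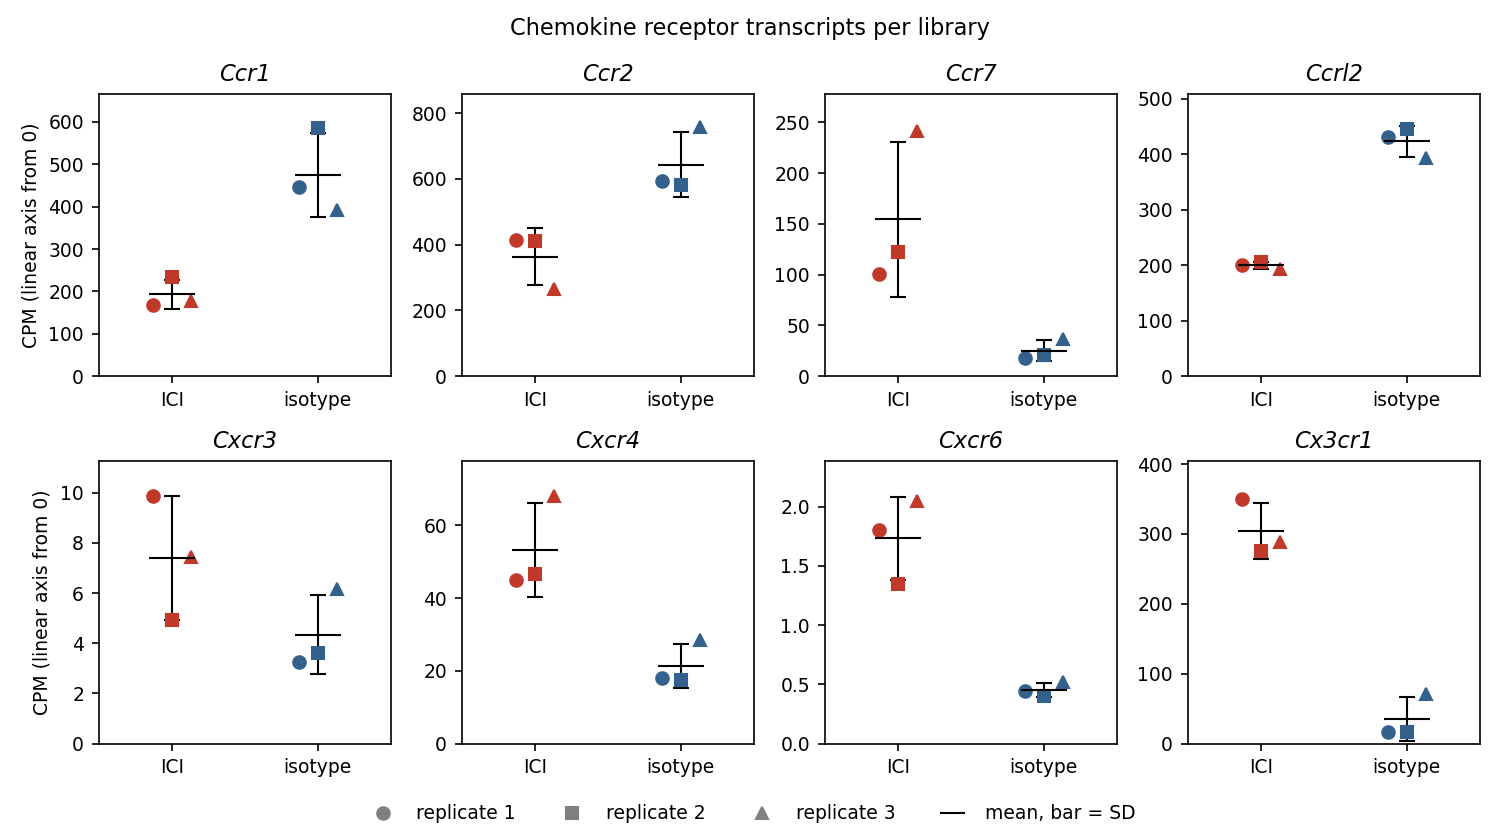
CPM of each receptor in every library, on linear axes that start at 0 and differ between panels; points are libraries (circle, square and triangle for replicates 1, 2 and 3), and the line and bar give the mean and SD of 3 libraries. In 7 panels the groups do not overlap, with Cx3cr1 between 276 and 350.3 CPM for ICI and between 17.0 and 71.3 CPM for isotype, and Cxcr3 is the panel where they overlap.

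For 7 of the 8 receptors the CPM of the groups did not overlap, 4 with ICI above and 3 with ICI below. Over all tested genes this held for 73.5%, 45.3% with ICI above and 28.2% with ICI below. The plot of CPM by library also shows that the replicates 3 often stood at an edge of their group. Replicate 3 of each group also carried the most Xist counts of its group (2786 for ICI and 1844 for isotype) and the fewest Y-linked counts (6 for ICI and 130 for isotype, against 3620 to 5821 in the other libraries), and the labels used here do not state the sex of the mice. With replicates 1 and 2 alone, the fold was 15.9 for Cx3cr1, 4.95 for Ccr7, 3.20 for Cxcr6 and 2.22 for Cxcr4, all higher, and 2.96 for Ccr1, 2.48 for Ccrl2 and 1.63 for Ccr2, all lower. These 7 kept their calls there, and the replicates 3 alone, 1 library a group, allow no test.

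**Figure D2:**
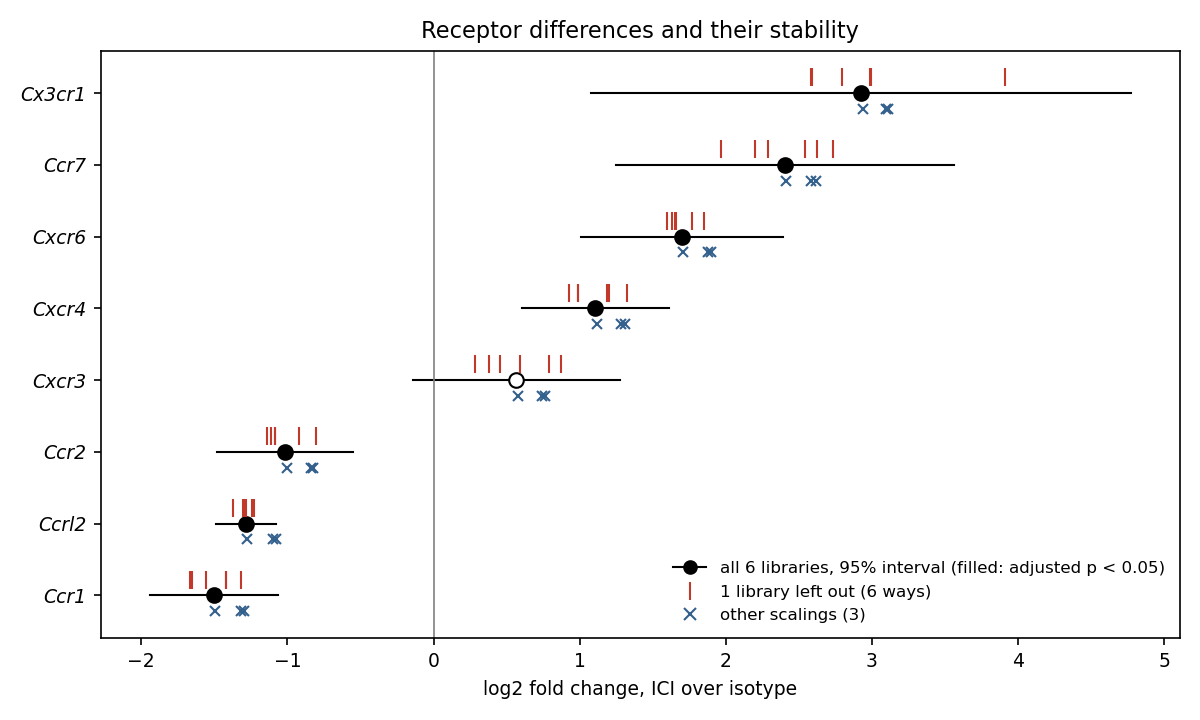
Log2 fold change of each receptor, ICI over isotype: dots with lines give the fit on 6 libraries with its 95% interval (filled where the adjusted p was under 0.05), ticks above give the 6 fits with 1 library left out, and crosses below give 3 other scalings. No tick or cross changes side, and the widest spread is that of Cx3cr1, from 2.58 to 3.91 with 1 library left out.

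The plot of fold changes under other settings shows the direction of all 8 receptors on the same side of 0 with each library left out and under each scaling. The median of all genes, 0.03, became 0.21 under upper-quartile factors and 0.23 under library totals alone. Under library totals alone the receptors moved with that shift, Ccr2 to -0.82 and Cxcr3 to 0.76, and no receptor gained or lost a call.

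To compare receptors with each other, CPM were divided by the length of the longest transcript in kilobases. On this scale the 8 receptors summed to 373, 390.1 and 417 CPM per kilobase in the ICI libraries, against 462, 515 and 484 in the isotype libraries. The summed level was thus lower in every ICI library. In the ICI libraries 5 receptors stood near each other: Ccrl2 at 81.4 ± 2.49 CPM per kilobase, Ccr7 at 78.1 ± 38.5, Ccr1 at 68.1 ± 12.3, Cx3cr1 at 67.8 ± 8.87 and Ccr2 at 63.4 ± 15.0 (SD, n = 3). The ranges of each neighbouring pair among these 5 overlapped. Below them came Cxcr4 at 29.4 ± 7.14, Cxcr3 at 4.28 ± 1.43 and Cxcr6 at 0.908 ± 0.185 CPM per kilobase, each below the one before in 3 of 3 libraries and with no overlap.

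In the isotype libraries 3 receptors stood far above the rest. Ccrl2 at 172 ± 11.1 and Ccr1 at 167.5 ± 35.0 CPM per kilobase overlapped, and Ccr2 at 112 ± 17.2 was below both in 3 of 3 libraries (SD, n = 3). Ccr7 at 12.7 ± 5.01, Cxcr4 at 11.8 ± 3.36 and Cx3cr1 at 7.83 ± 6.96 CPM per kilobase formed a lower band in which neighbours overlapped. Cxcr3 at 2.50 ± 0.913 and Cxcr6 at 0.239 ± 0.0310 CPM per kilobase came last, as they did in the ICI libraries.

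Expressed as shares of the summed CPM per kilobase, Ccr1, Ccrl2 and Ccr2 took most of the receptor signal in the isotype libraries and a smaller part in the ICI libraries. The share of Ccrl2 was 20.7% ± 1.61 for ICI and 35.4% ± 2.51 for isotype, that of Ccr1 17.3% ± 3.24 for ICI and 34.3% ± 5.72 for isotype, and that of Ccr2 16.3% ± 4.56 for ICI and 23.1% ± 3.86 for isotype (SD, n = 3 each). The share of Ccr7 was 19.5% ± 8.51 for ICI and 2.62% ± 1.04 for isotype, that of Cx3cr1 17.3% ± 3.08 for ICI and 1.62% ± 1.44 for isotype, and that of Cxcr4 7.43% ± 1.38 for ICI and 2.44% ± 0.713 for isotype. Exact two-sided permutation tests gave p = 0.1 for 7 shares, the smallest that 3 against 3 libraries allow, and p = 0.2 for Cxcr3. Adjusted over the 8 shares these were 0.114 and 0.2, so no share passed 0.05, which this design cannot reach.

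**Figure D3:**
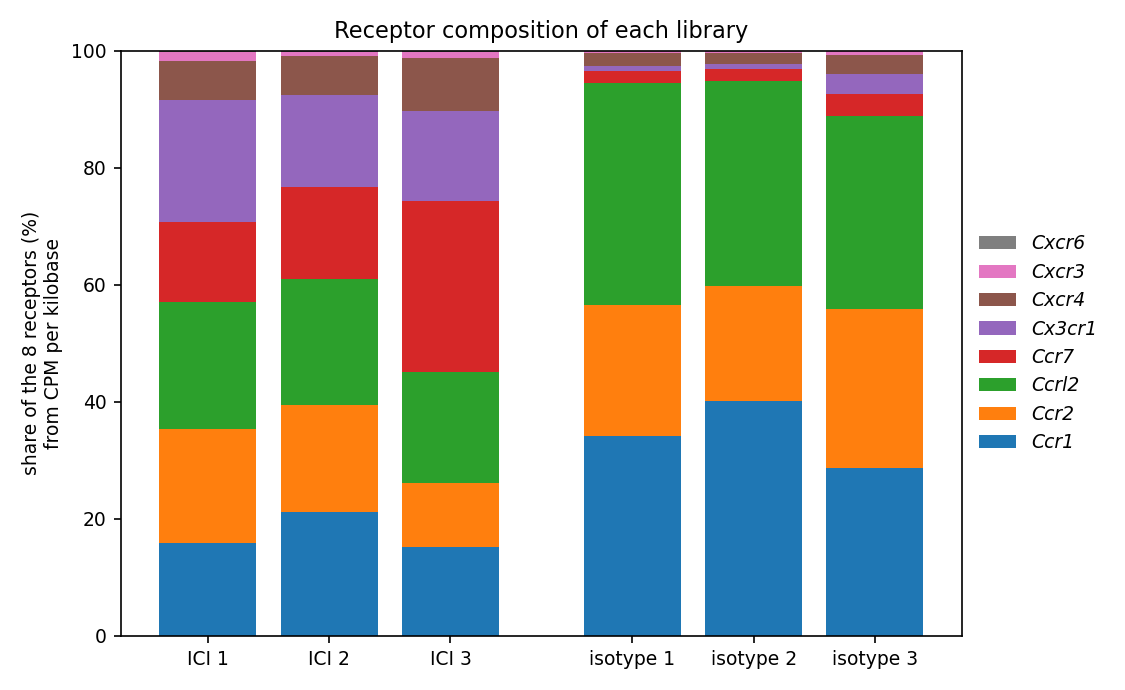
Each bar is a library and is cut into the shares of the 8 receptors, in percent of their summed CPM per kilobase of transcript. The blocks of Ccr1, Ccr2 and Ccrl2 fill most of each isotype bar, whereas Ccr7 and Cx3cr1, at 2.62% and 1.62% on average there, average 19.5% and 17.3% in the ICI bars.

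Ratios within a library do not depend on the scaling between libraries. The ratio of Cx3cr1 to Ccr2 per kilobase was 1.08, 0.856 and 1.39 in the ICI libraries, against 0.0371, 0.0374 and 0.120 in the isotype libraries, a 19.7-fold difference (exact two-sided permutation p = 0.1). The receptors were thus near equal in the ICI libraries, and Ccr2 led by far in the isotype libraries. The ratio of Cxcr4 to Ccr2 was 0.343, 0.358 and 0.817 in the ICI libraries, against 0.0971, 0.0962 and 0.119 in the isotype libraries, a 4.49-fold difference (exact two-sided permutation p = 0.1). The ratio of Ccr1 to Ccr2 was 0.818, 1.14 and 1.37 in the ICI libraries, against 1.52, 2.04 and 1.05 in the isotype libraries. For this pair, which fell together, the groups overlapped (exact two-sided permutation p = 0.3).

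Some ligands moved with their receptors and others against them. Of 17 receptor and ligand pairs, 7 had called changes of opposite sign, 3 had called changes of the same sign, and 7 had a member that was not called or not tested. The pairs share genes and are not independent. Apart from Cxcr6 with Cxcl16, every opposite pair held Ccr1 or Ccr2, and Ccl7 was counted with both. Of 17 listed ligands 15 were tested, 7 were higher and 5 lower in the ICI libraries, and 3 were not called. The shares over all tested genes were 35.0% higher and 33.9% lower.

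Of the 8 tested ligands paired with the receptors that fell, 5 were higher in the ICI libraries, 1 was lower and 2 were not called. The Ccr2 ligand Ccl2 had 593 ± 82.1 CPM for ICI and 338 ± 56.1 CPM for isotype (log2 fold change 0.61, edgeR adjusted p = 0.00705), and Ccl12, another Ccr2 ligand, had 285 ± 91.7 CPM for ICI and 91.2 ± 19.1 CPM for isotype (1.45, adjusted p = 0.00562; SD, n = 3 each). Ccl7, which acts on both Ccr1 and Ccr2, had a log2 fold change of 0.96, and the Ccr1 ligands Ccl3 and Ccl9 had 0.95 and 1.07. Ccl5 was the exception among the Ccr1 ligands, with 30.1 ± 5.76 CPM for ICI and 81.0 ± 8.89 CPM for isotype (log2 fold change -1.63, edgeR adjusted p = 4.48e-06). Ccl6 was near level (-0.03, adjusted p = 0.834). With a trend on transcript length removed, log2 fold changes kept their sign and moved to -0.88 for Ccl5, 2.20 for Ccl12 and 1.55 for Ccl3. Rarres2, which encodes chemerin, was at the edge of detection, with 27, 13 and 14 counts in the ICI libraries, against 13, 19 and 21 counts in the isotype libraries, and was not called; the sign of its log2 fold change, 0.14, turned when ICI replicate 1 or isotype replicate 1 was left out. Cmklr1, the signalling receptor for chemerin, had 10.7 ± 0.404 CPM for ICI and 10.2 ± 0.304 CPM for isotype; its log2 fold change was -0.13 (edgeR adjusted p = 0.341) and turned positive with upper-quartile factors or library totals.

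The ligands of Cxcr3 were all lower in the ICI libraries. Cxcl9 had 30.1, 58.0 and 17.5 CPM in the ICI libraries, against 499, 532 and 434 CPM in the isotype libraries (log2 fold change -3.99, edgeR adjusted p = 0.00136). Cxcl11 followed with a log2 fold change of -3.41 (adjusted p = 3.09e-05; -4.22 without ICI replicate 2), and Cxcl10 with -1.50 (adjusted p = 0.0277), a call that was lost when ICI replicate 1, isotype replicate 1 or isotype replicate 2 was left out and with no filter on low counts (adjusted p = 0.0656 to 0.0843 over these 4). Cxcr3 itself gave no call in either direction.

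Receptor and ligand were both higher for Cxcr4 and for Cx3cr1. Cxcl12 had 12.9, 10.4 and 10.8 CPM in the ICI libraries, against 0.271, 0.122 and 0.358 CPM in the isotype libraries (log2 fold change 5.23, edgeR adjusted p = 2.90e-07). Its isotype counts were 8, 3 and 11, and it passed the filter through its ICI counts. Fibroblasts make much Cxcl12 and are not meant to be in a CD45-positive gate; of 5 fibroblast genes (such as Dcn and Col1a1) 4 were higher, and they summed to 55.6 to 175 CPM in the ICI libraries and 9.21 to 11.6 CPM in the isotype libraries. Their part in the Cxcl12 result was not tested. Cx3cl1, which encodes fractalkine, had 6.92 ± 0.690 CPM for ICI and 1.53 ± 0.643 CPM for isotype (log2 fold change 1.95, edgeR adjusted p = 7.86e-05). Endothelial cells are a main source of fractalkine: of 6 endothelial genes (such as Kdr and Fabp4) 5 were tested and all 5 were higher, with sums of 17.8 to 26.1 CPM for ICI and 4.85 to 6.08 CPM for isotype. Their part in the Cx3cl1 result was not tested. For Cxcr6 the signs were opposite, as its ligand Cxcl16 had 269 ± 35.7 CPM for ICI and 373.5 ± 71.9 CPM for isotype (-0.67, adjusted p = 0.00351). The Ccr7 ligands Ccl19, with 0 to 6 counts per library, and Ccl21a, with 0 counts in all 6, were too low to test.

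**Figure D4:**
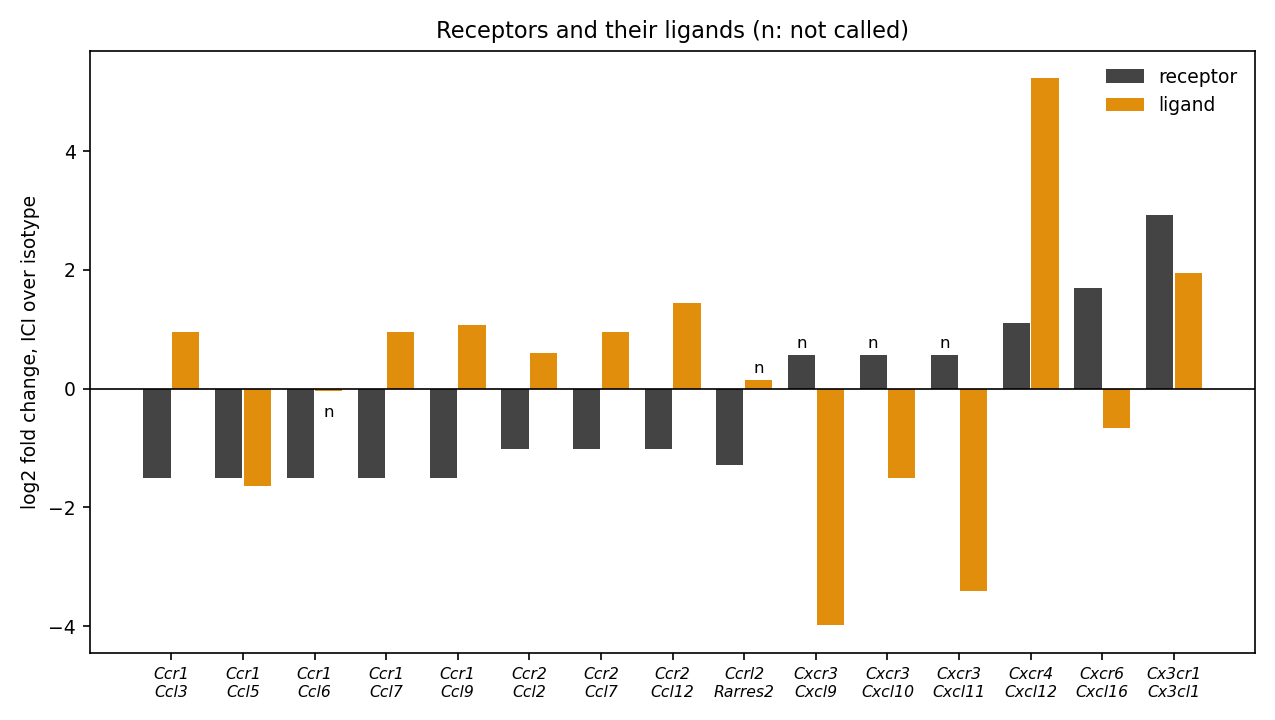
Log2 fold change, ICI over isotype, of each receptor (dark bars) beside its ligand (light bars) for the 15 pairs in which both were tested; n marks a gene that was not called. The Ccr2 bars point down and those of Ccl2, Ccl7 and Ccl12 up, the 3 Cxcr3 ligands point down, and Cxcl12 has the tallest bar at 5.23.

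Other chemokine receptors were mostly higher in the ICI libraries. Of 17 listed, 11 were tested, 8 were higher, 1 was lower and 2 were not called, beside 35.0% higher and 33.9% lower over all tested genes. The median log2 fold change of the 11 was 2.98, the value of Ccr6. Ccr6, Ccr8, Ccr1l1 and Ackr3 had few isotype counts and passed the filter through their ICI counts, so positive values were favoured among them. With a filter of 50 counts in 3 libraries, 4 of the listed receptors were called higher. That filter can also be met by the 3 ICI libraries alone, so it does not remove this limit. Ccr3 and Cxcr5 met it that way, with at most 41 and 39 counts in an isotype library. Cxcr5, which draws B cells into follicles, had 20.0, 27.7 and 63.7 CPM in the ICI libraries, against 0.508, 0.892 and 1.27 CPM in the isotype libraries (log2 fold change 5.15, edgeR adjusted p = 0.000976; 4.56 without ICI replicate 3). Like Ccr7, it was highest in ICI replicate 3. Ccr3, known from eosinophils, had 8.25, 5.90 and 20.1 CPM in the ICI libraries, against 0.846, 0.730 and 1.33 CPM in the isotype libraries (log2 fold change 3.31, edgeR adjusted p = 0.00201; 2.67 without ICI replicate 3). Cxcr2, a neutrophil receptor, was 1.59-fold higher. Xcr1, a receptor of cross-presenting dendritic cells, was 1.66-fold higher, but its call was lost without ICI replicate 1, ICI replicate 2 or isotype replicate 1 (adjusted p = 0.0511, 0.0628 and 0.0611), and Clec9a, another marker of these cells, was lower (log2 fold change -1.37, edgeR adjusted p = 0.000500). Ackr3, a scavenger of Cxcl12, had 92, 25 and 54 counts in the ICI libraries, against 3, 5 and 7 counts in the isotype libraries. Ccr6, Ccr8 and Ccr1l1 were also called higher, on at most 49, 18 and 23 counts in an ICI library and at most 9, 2 and 2 counts in an isotype library, and the log2 fold change of Ccr6, 2.98, was 4.21 without isotype replicate 3.

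Ccr7 lies on chromosome 11, Cxcr4 on chromosome 1 and Cxcr3 on chromosome X, and the other 5 receptors lie on chromosome 9, where several receptor genes stand side by side. In RefSeq's order on GRCm38.p6, Ccr1 lies there between Xcr1 and Ccr1l1, Ccr2 lies next to Ccr3, and Cx3cr1 lies next to Ccr8. Neighbours did not share a direction at 2 of these places: Ccr1 was lower and both its neighbours higher, and Ccr2 was lower and Ccr3 higher (log2 fold changes -1.02 for Ccr2 and 3.31 for Ccr3). Cx3cr1 and Ccr8 were both higher. Ccr8 and Ccr1l1 passed the filter through their ICI counts, so for these neighbours a positive value was favoured. Of the 50-base words in the longest transcript, Ccr2 shared 2.27% with other genes and Cx3cr1 1.06%, and the other 6 receptors shared none, so reads split between near-identical copies could touch only small stretches of the receptors.

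Of 25 genes that act below chemokine receptors 9 were higher and 10 lower in the ICI libraries, with a median log2 fold change of -0.04. These counts lie near the shares over all tested genes, 35.0% higher and 33.9% lower. The median absolute log2 fold change was 0.50 over the 25 genes and 0.66 over all tested genes. Outside the RGS genes every one of them differed by less than 2-fold. Gnai2, the main inhibitory alpha subunit in leukocytes, had a log2 fold change of -0.35 (edgeR adjusted p = 0.00561), a call that was lost under upper-quartile factors and library totals, and Dock2, a Rac activator needed for leukocyte migration, had 0.13 (adjusted p = 0.178). The RGS proteins, which switch G protein signals off, diverged. Rgs18 had 41.1, 42.3 and 47.6 CPM in the ICI libraries, against 1.49, 1.95 and 2.02 CPM in the isotype libraries (log2 fold change 4.38, edgeR adjusted p = 1.43e-08). Rgs10 and Rgs16 were 3.71-fold and 3.42-fold higher, whereas Rgs1, which dampens chemokine responses in lymphocytes and macrophages, had 133, 115 and 139 CPM in the ICI libraries, against 288, 277 and 357 CPM in the isotype libraries (log2 fold change -1.46, edgeR adjusted p = 2.26e-06). The class IB phosphoinositide 3-kinase subunits also parted, with the catalytic Pik3cg 1.98-fold higher and the regulatory Pik3r5 1.42-fold lower.

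Marker genes of the cells that carry these receptors moved with the groups. Counts of called markers stand beside 35.0% called higher and 33.9% called lower over all tested genes. In bulk RNA, fewer cells of a type and less RNA per cell cannot be told apart, so the values are set side by side. Of 6 classical monocyte genes (such as Ly6c2 and Chil3) 5 were lower and 1 was not called, and they summed to 496 to 653 CPM in the ICI libraries and 3440 to 8256 CPM in the isotype libraries, beside the lower Ccr2 and Ccr1. Genes of neutrophils, which also carry Ccr1, went the other way: of 8, 5 were higher, 1 lower and 2 not called. They summed to 521 to 573 CPM for ICI and 379 to 447 CPM for isotype. All 10 resident macrophage genes (such as Lyve1, Cd163 and Mrc1) were higher, with sums of 5104 to 5847 CPM for ICI and 74.9 to 125 CPM for isotype. Cd209f had 0 counts in the 3 isotype libraries and Vsig4 had 7, 0 and 2. Both passed the filter through their ICI counts, so positive values were favoured for them. The same limit holds for other marker genes that were as scarce in the isotype libraries. Of 8 patrolling monocyte genes (such as Ace and Cd300e) 6 were higher and 1 lower, with sums of 1115 to 1298 CPM for ICI and 884 to 973 CPM for isotype. That difference in the sums rests on Nr4a1, an activation-induced gene: left out after its values were seen, the other 7 genes, 5 higher and 1 (Itgal) lower, summed to 406 to 433 CPM for ICI and 388 to 484 CPM for isotype, which overlap. The resident macrophage genes stand beside the higher Cx3cr1. Isotype replicate 3, the isotype library with the most Cx3cr1, had the highest resident macrophage sum of its group and the lowest classical monocyte sum. It also had the highest isotype sum of several other lists, such as B cell, T cell, mast cell and conventional dendritic cell genes. That did not hold for natural killer cell or patrolling monocyte genes, and no link to Cx3cr1 was tested.

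Beside Ccr7, all 6 B cell genes were higher, with sums of 207, 269 and 715 CPM in the ICI libraries, against 4.06, 5.35 and 9.11 CPM in the isotype libraries. Pax5, with 1, 4 and 2 counts in the isotype libraries, passed the filter through its ICI counts. ICI replicate 3 led in the B cell genes, in Ccr7 and in Cxcr5. Of 8 mature dendritic cell genes (such as Fscn1 and Ccl22) 4 were higher and 4 were not called, with sums of 56.5 to 65.2 CPM for ICI and 29.4 to 46.8 CPM for isotype. Of 8 conventional dendritic cell genes (such as Flt3 and Zbtb46) 6 were higher and 1 lower, with sums of 526 to 624 CPM for ICI and 198 to 268 CPM for isotype. Sums of a list rest on its leading genes, and which cells carried the Ccr7 transcripts was not tested. Beside Cxcr6 and Cxcr3, all 10 natural killer cell genes (such as Ncr1 and Gzma) were higher, with sums of 101 to 154 CPM for ICI and 37.5 to 49.7 CPM for isotype. Of 6 genes of group 2 innate lymphoid cells 3 were tested and 2 were higher, with sums of 43.1 to 64.9 CPM for ICI and 1.35 to 2.51 CPM for isotype. Il1rl1, which mast cells also carry, made up most of the ICI sums, with 35.3 to 55.0 CPM in the ICI libraries and 0.203 to 0.781 CPM in the isotype libraries. Gata3 was not called, Il5 had at most 3 counts and Il13 had 0 counts in all 6 libraries, and these lymphoid cells carry the CD90 antigen that the sort was set to leave out. Of 6 mast cell genes 5 were higher, with sums of 32.5 to 87.1 CPM for ICI and 12.98 to 26.0 CPM for isotype. T cell genes were scarce: of 13 listed 8 were tested, 4 higher and 1 lower. They summed to 23.4 to 43.9 CPM for ICI and 4.94 to 7.29 CPM for isotype, with Cd4 and Cd28 leading the ICI sums. The T cell receptor gene Trac was the 1 lower (log2 fold change -1.23, edgeR adjusted p = 0.0261). Cd3e and Trbc2 were not called, and Cd3g and Cd247 were higher. Thy1, which encodes the antigen of the negative gate, had at most 2 counts in any library, and Ptprc, which encodes CD45, had 1300 ± 107 CPM for ICI and 1012 ± 58.8 CPM for isotype (SD, n = 3 each) and was not called (edgeR adjusted p = 0.164). The 8 immediate-early and feedback genes (such as Fos and Egr1), which also respond to tissue digestion, were all higher, as were the heat shock genes Hspa1a and Hspa1b listed with them. Together the 10 summed to 19828 to 25937 CPM for ICI and 5990 to 6447 CPM for isotype, and without the heat shock genes the sums were 15840.3 to 20968 CPM for ICI and 5899 to 6273 CPM for isotype. The part of these cells and of these genes in the receptor results was not tested.

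**Figure D5:**
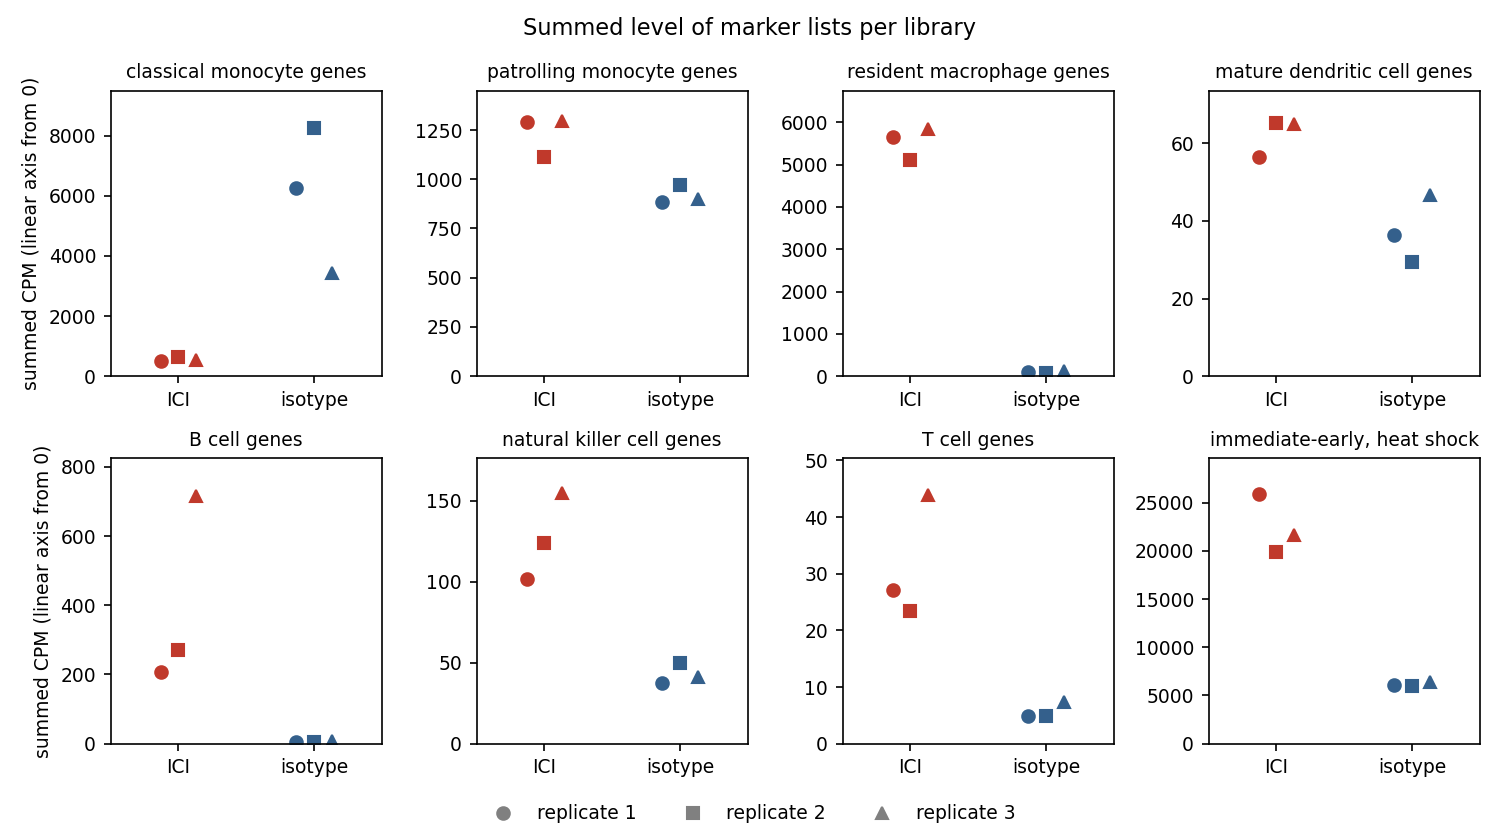
Summed CPM of the genes of 8 marker lists in every library, on linear axes that start at 0 and differ between panels; points are libraries, with symbols by replicate. Classical monocyte genes lie lower in the ICI libraries and the other 7 sums higher, that of the patrolling monocyte genes through Nr4a1, and ICI replicate 3 stands apart in the B cell genes at 715 CPM.

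The plot of summed marker genes gives the makeup of the libraries beside which the receptor values stand. The direction of all these differences rests on the labels, since the treatment by antibodies leaves no gene by which the label of a library could be checked.

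For each receptor, the genes with the most like pattern were found by the root mean square difference of centred log2(CPM + 0.1) values over the 6 libraries, among 8410 genes that averaged 10 CPM or more. Ccrl2 had the closest match, Ctsc (difference 0.0259), followed by Psmc4 (0.0326). Cxcr4 was closest to Il10 (0.0526) and Rabgap1l (0.101), Cxcr6 to Serinc5 (0.0574) and Zfp36l1 (0.0725), Ccr1 to Cers6 (0.103) and Inpp5b (0.108), Ccr2 to H2-DMb1 (0.122) and Gatm (0.132), and Cxcr3 to Brd1 (0.130) and Fam193a (0.143). Ccr7 was closest to Btla (0.181) and Cd22 (0.194), both known from B cells. Cx3cr1 had the loosest matches, Nav1 (0.355) and Cd276 (0.360). These are descriptions over 6 libraries that fall into 2 groups.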

How the data were processed

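Non-directional libraries were prepared from total RNA with the SMART-seq V4 kit for low input and read from both ends, per the labels' protocols. The authors deposited raw counts per Ensembl gene for 57010 genes and 6 libraries, with no normalization. STAR 2.7.10a, Salmon 1.10.1 and the build GRCm39 are named per the submitters' processing notes; neither the annotation release nor the strand setting is named. Symbols matched 52029 identifiers (91.3%). Total counts ran from 21528274 to 23713009 in the ICI libraries and from 24657436 to 30736316 in the isotype libraries, and no pair of libraries differed by as little as sampling noise (chi-square per degree of freedom 12.8 to 35.3).

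Deposited counts were tested with edgeR 4.0.16 (R 4.3.3) by its quasi-likelihood F test, with TMM factors and robust dispersions. The default filter (filterByExpr, minimum count 10) left 14575 genes holding 99.9% of counts. It was checked on simulated data. Adjusted p-values are Benjamini-Hochberg values over those genes. CPM are on library totals, so a fitted fold differs from a ratio of CPM means by the TMM factors (1.05 to 1.10 for ICI, 0.921 to 0.952 for isotype). The labels call the replicates biological. Lengths came from GENCODE M21, and promoters and gene order from RefSeq (GRCm38.p6), an older build, so no other coordinates are given. The alternatives were DESeq2 1.42.0, limma-voom 3.58.1, other scalings, no filter, a filter of 50 counts in 3 libraries (strict filter), a replicate block, each library left out, replicates 1 and 2 alone, a test against a 1.5-fold change, removal of a transcript length trend and, added after the data were seen, the legacy quasi-likelihood fit and marker sums without Nr4a1 or without Hspa1a and Hspa1b.

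The members and the lists were chosen with earlier results of these data known. Named genes were the members, called members of the receptor, ligand and signalling lists, up to 3 leading markers a list, the 2 genes most like each member, Ptprc, Thy1 and chromosomal neighbours; other genes are named as examples chosen after their values were seen. Some genes of the lists are counted but not reported here by name. Reads were PCR-amplified with no molecular identifiers and are not independent molecules.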

Additional observations from a re-analysis of the deposited data

How the results depend on the processing

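Of 135 alternative fits with a test for the 8 receptors 131 kept direction and side of the threshold. The exceptions were the lost Cx3cr1 call and the 3 gained Cxcr3 calls given with those genes. Removal of a transcript length trend gives a value with no test: the 8 receptors kept their direction, and Ccr2 moved most, to a log2 fold change of -1.27. Cxcr6 was not tested under the strict filter. Between 3 and 5 receptors were called higher, and 3 lower, over all alternatives. With each library left out in turn, 4624 to 5068 genes were called higher and 4500 to 4870 lower. Against a 1.5-fold change 3110 genes were higher and 2410 lower, with 3 ligands and 1 signalling gene lower; the strict filter left 4 of the other chemokine receptors higher, as it tests fewer genes. Library totals alone gave 6255 higher and 3724 lower genes, and upper-quartile factors 6155 and 3849. The log2 fold change of Cmklr1 turned to 0.0497 with upper-quartile factors and 0.0702 with library totals, and that of Rarres2, which ran from -0.28 to 0.36 with each library left out, turned to -0.28 without ICI replicate 1 and -0.08 without isotype replicate 1; the cause was not tested. Deviations of same-numbered libraries correlated at 0.03, 0.06 and 0.13, and those of differently numbered libraries at -0.14 to 0.09. Replicate 3 of each group also shared high Xist and low Y-linked counts. The labels do not say that the numbers pair the libraries, so a replicate block was fitted as an alternative only. With the replicate block 5079 genes were called higher and 4912 lower, 4 receptors higher and 3 lower, and Cx3cr1 had a log2 fold change of 3.25. Of 692 alternative fits with a test for other named genes 655 kept direction and side of the threshold, 33 lost the call and 4 turned in sign. With the length trend removed 17 of 41 values moved by at least the standard error of the main log2 fold change. Among them were Ccl5, which moved to -0.88, and Ccl12, which moved to 2.20. No filter on low counts left 4 ligands lower, without Cxcl10. Receptors with few counts, Cxcr6 above all, are limited by depth. The labels alone assign libraries to groups.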
